A study of Rattus norvegicus with 24 samples.

Results

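Solute carriers are membrane proteins that move amino acids, sugars, ions, neurotransmitters and metabolites across the plasma membrane and the membranes of organelles. They were followed here in rat hippocampus after an ischemia operation. The members are the genes on the array whose symbol begins with Slc and a family number, taken from probe sets annotated to exactly 1 gene, without Slc1a1, Slc1a2, Slc1a3, Slc17a7, Slc2a1 and Slc8a1. Each gene was represented by its probe set with the highest mean over all arrays. This gave 114 of the 4737 genes on the array, from 37 families, which were sorted by family number into 11 substrate classes with 1 gene, Slc52a3, left over. All 114 matched a RefSeq gene by identifier, which is no test of the label, since identifier and symbol come from the same annotation. The label was chosen by symbol and not by any measured value.

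Total RNA of hippocampus was hybridised to 24 Affymetrix rat arrays. The SHAM arm is described in the labels as sensitive to hypoxia and the TOL arm as tolerant of it, and both were sampled at 0, 1, 3, 12, 24 and 48 h after the ischemia operation. Each of the 12 groups held 2 arrays, called 1st and 2nd experiment. The labels give no strain, age, sex, treatment that induced tolerance or number of animals per array. Since separate animals are not stated either, a p-value here covers the spread between arrays alone, which may be technical.

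Levels are quantile normalised intensity in arbitrary units, and a level below 41.1 units is called below the noise level (the 99th percentile of values from 1978 probe sets with a mean no higher than 0). Array medians before normalisation ran from 51.6 to 85.6 units, and 2 arrays of a group correlated at 0.921 to 0.954 across probe sets. The hippocampal pyramidal neuron markers were above noise (4 of 4 measured), while the summed choroid plexus markers varied up to several fold within a group, for instance 865 and 5321 units on the 12 h SHAM arrays. Of the 24 arrays, 12 were hybridised on each of 2 days, with 11 SHAM arrays on one and 11 TOL arrays on the other. All 4 TOL arrays of 24 and 48 h carry a fluidics record marked as aborted, and the SHAM arrays of these times do not. The number of arrays limits the precision.

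Of the 114 members, 100 passed the filter on dim signals and were tested, 76 had a mean above the noise level, and 72 were above it in every group on at least 1 array. The other 38 were below it on average, 27 of them in every group. These include Slc6a9, a glycine transporter, Slc1a6, a glutamate transporter of Purkinje cells, and Slc13a2, a citrate transporter of kidney and gut. A level there says only that these probe sets gave no signal over background.

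Among brain solute carriers, the system L exchanger is built of Slc7a5, the light chain that carries leucine, phenylalanine and other large neutral amino acids, and Slc3a2, the heavy chain that brings it to the cell surface. Slc7a1 takes up arginine, lysine and ornithine. In other tissues these 3 genes are known to be raised when amino acids run short or protein folding is disturbed, through the factor Atf4 acting on amino acid response elements. Their promoters are shown because these members moved in the same direction in the data that follow. The sequences are the 250 bases before the annotated start, read 5′ to 3′ on the gene's own strand in the RefSeq annotation of GRCr8, and capitals mark the match to the core of that element, TGATGNAA.

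Slc7a1, chr12:11664238-11664487, plus strand: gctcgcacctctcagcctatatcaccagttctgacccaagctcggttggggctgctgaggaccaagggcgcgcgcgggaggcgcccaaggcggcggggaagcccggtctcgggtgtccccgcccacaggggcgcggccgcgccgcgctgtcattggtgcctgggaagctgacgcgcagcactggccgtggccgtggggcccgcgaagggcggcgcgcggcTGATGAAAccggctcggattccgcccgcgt
Slc7a5, chr19:66872413-66872662, minus strand: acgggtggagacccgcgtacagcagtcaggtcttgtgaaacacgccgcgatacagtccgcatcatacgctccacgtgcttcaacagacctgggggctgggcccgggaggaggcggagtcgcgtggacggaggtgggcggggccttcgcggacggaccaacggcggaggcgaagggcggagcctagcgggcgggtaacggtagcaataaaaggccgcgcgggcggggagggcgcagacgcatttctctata
Slc3a2, chr1:215048065-215048314, minus strand: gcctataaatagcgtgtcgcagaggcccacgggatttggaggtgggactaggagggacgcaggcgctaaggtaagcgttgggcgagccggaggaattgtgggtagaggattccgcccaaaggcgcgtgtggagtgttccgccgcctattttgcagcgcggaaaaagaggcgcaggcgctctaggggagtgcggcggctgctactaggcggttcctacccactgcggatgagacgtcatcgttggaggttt

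The core was searched on both strands. It was found once in the Slc7a1 window, on the plus strand, beginning 30 bases before the start, and its letters were not in the windows of Slc7a5 and Slc3a2. Of 33469 rat promoters of this length 1139 (3.4%) held it, as did 2 of the 96 members with an entry (2.08%), Slc7a1 and Slc23a3. Slc7a3 had no entry. A match is a string of letters and not a shown binding site.

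Over time, 9 of the 100 tested members changed in SHAM by limma's moderated F test with Benjamini-Hochberg adjustment, where 15.7% of all tested probe sets did. In TOL 5 changed, against 11.7% of all. Averaging the 2 arms, a comparison added after the data were seen, gave 20 members against 27.5% of all. In each case the share of members called was below that of the array as a whole. The median log2 difference of the tested members from 0 h lay between -0.10 and 0.08 at every time in either arm, beside -0.04 to 0.00 for all probe sets. At 24 and 48 h every TOL array carries the aborted record, and with these 2 times left out of the F tests the counts were 2 in SHAM (Slc7a1 and Slc5a3), 1 in TOL (Slc7a1) and 8 in the average. With hybridisation day as a block the SHAM calls of Slc7a5 (adjusted p = 0.055), Slc15a4 (0.054), Slc6a15 (0.05) and Slc37a4 (0.14) were lost, as were those of Slc4a3 (0.064), Slc15a4 (0.063), Slc2a5 (0.12) and Slc16a7 (0.084) in the average, and all 5 TOL calls held. Within the day that holds most arrays of an arm, Slc7a1 alone kept its call, being 1 of 9 in SHAM and 1 of 5 in TOL. Leaving out one SHAM array, replicate 1 of 0 h or of 1 h, brought the SHAM count to 3, and leaving out either TOL array of 24 h brought the TOL count to 1.

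**Figure D1:**
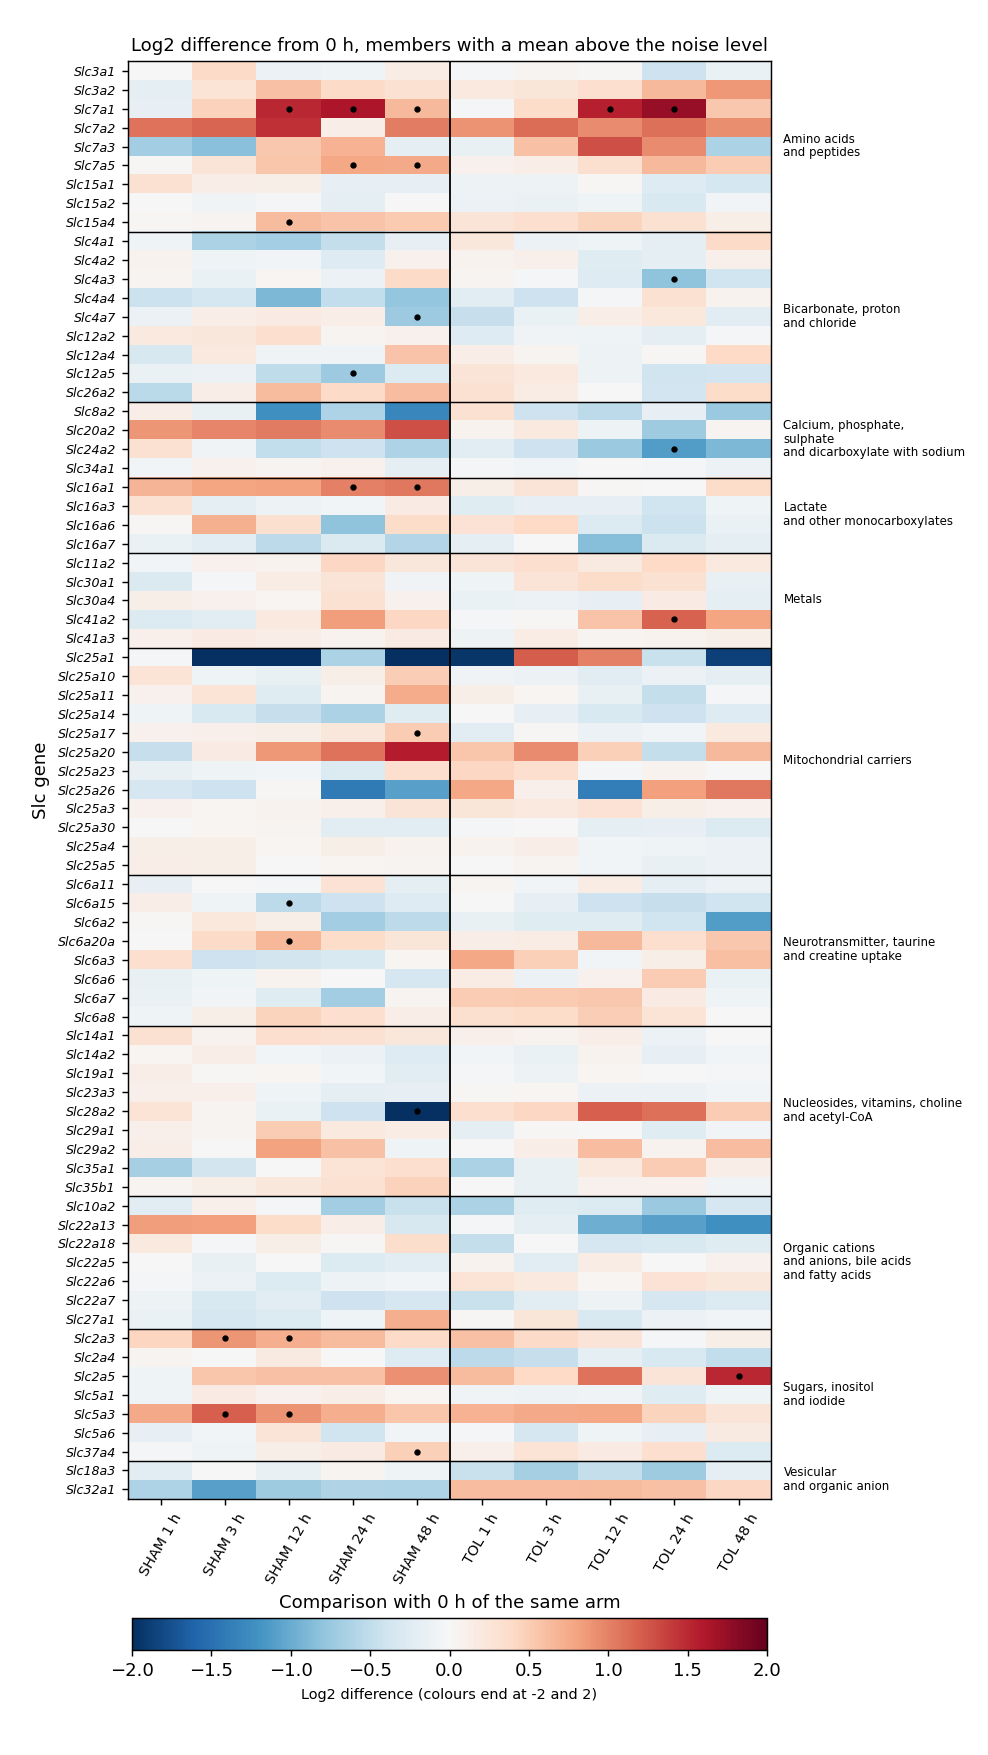
Log2 difference from 0 h of the same arm (colour, ending at -2 and 2) for the 76 members with a mean above the noise level, in rows by substrate class, at 5 later times in SHAM (left) and TOL (right), each from 2 arrays against 2. Dots mark an adjusted p under 0.05 by limma, and Slc7a1 carries dots at 12 and 24 h in both arms.

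By single times, no member was called at 1 h in either arm, where 0.818% of all probe sets were called in SHAM and 1.24% in TOL. At an unadjusted limma p under 0.05 there were 7 members in SHAM and 9 in TOL. SHAM then had 2 calls at 3 h (2.03% of all), 6 at 12 h (5.81%), 4 at 24 h (9.11%) and 7 at 48 h (12.4%). Both calls of 3 h were rises, as were 5 of the 12 h calls, 3 of the 24 h calls and 5 of the 48 h calls. TOL had 0 calls at 3 h (1.2%), 1 at 12 h (4.47%), 5 at 24 h (7.37%) and 1 at 48 h (7.5%), of which 2 at 24 h were falls and the others rises. The unadjusted limma p was under 0.05 for 4 members in TOL at 3 h. The average of both arms gave 1 member at 1 h (2% of all), 2 at 3 h (3.95%), 7 at 12 h (11.3%), 14 at 24 h (17.2%) and 16 at 48 h (20.9%), with falls making up 2, 7 and 6 of the last 3 counts. All times of an arm are set against the same pair of 0 h arrays. Without replicate 1 or replicate 2 of SHAM at 0 h the SHAM calls summed over times dropped from 19 to 6, and without replicate 1 of TOL at 0 h, or either TOL array of 24 h, the TOL calls went from 7 to 3.

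Class medians were taken over tested members with a mean above the noise level. The amino acid and peptide carriers were the class with the highest median log2 difference in the average of both arms at 12 h (0.46) and 24 h (0.51), beside -0.02 and -0.04 for all probe sets. It holds 10 members, of which 9 were tested, 3 changed in SHAM, 1 in TOL and 4 in the average, beside 15.7%, 11.7% and 27.5% of all probe sets. With hybridisation day as a block 1 of the 3 SHAM calls, Slc7a1, held. Slc7a1, the cationic amino acid uptake carrier, had the smallest p-values of all members. In SHAM its array pairs read 156 and 164 (0 h), 162 and 126 (1 h), 237 and 204 (3 h), 462 and 444 (12 h), 511 and 473 (24 h) and 239 and 263 (48 h) units. In TOL they read 123 and 134 (0 h), 108 and 148 (1 h), 174 and 158 (3 h), 317 and 444 (12 h), 421 and 434 (24 h) and 193 and 180 (48 h). Both arms stayed near the 0 h level at 1 h, peaked at 12 and 24 h and came part of the way back by 48 h, and every array from 3 h on lay above both 0 h arrays of its arm. The log2 difference from 0 h was 1.50 ± 0.18 (SE, adjusted p = 0.00022) at 12 h and 1.62 ± 0.18 (8.6e-05) at 24 h in SHAM. In TOL it was 1.55 ± 0.18 (0.00018) at 12 h and 1.74 ± 0.18 (5.6e-05) at 24 h. At 48 h the difference was 0.65 in SHAM (adjusted p = 0.032) and 0.54 in TOL, where it did not pass (0.089). The F test gave 5e-05 in SHAM and 3.8e-05 in TOL by limma, and these calls held under 11 other settings and with each of the 24 arrays left out, but were lost on another probe set of the gene.

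Slc7a1 has 3 probe sets, which did not all move alike. The dimmest one read 67.8 and 57.8 (0 h), 39 and 19.8 (1 h), 105 and 81.4 (3 h), 304 and 335 (12 h), 338 and 310 (24 h) and 123 and 85.8 (48 h) in SHAM and 31.1 and 14.8 (0 h), 26 and 46.5 (1 h), 70 and 35.7 (3 h), 109 and 241 (12 h), 201 and 266 (24 h) and 86.5 and 46.8 (48 h) in TOL. It also rose at 24 h, with a log2 difference of 2.37 ± 0.50 in SHAM (adjusted p = 0.009) and a rise of at least 5.62-fold in TOL (0.001), where the 0 h pair was below the noise level and was counted at that level. The remaining one, second in brightness, at 154 and 231 units in SHAM at 0 h and 161 and 145 at 24 h, did not pass at any time, with -0.31 ± 0.27 in SHAM and -0.24 ± 0.27 in TOL at 24 h. Its F tests gave 0.2 in SHAM and 0.84 in TOL, and its 24 h values had the opposite sign to those of the other 2.

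Slc7a5, the light chain of system L, was first called at 24 h in SHAM, and its timing was not tested against that of Slc7a1. SHAM arrays read 462 and 523 (0 h), 496 and 498 (1 h), 592 and 588 (3 h), 815 and 645 (12 h), 761 and 928 (24 h) and 790 and 868 (48 h) units. TOL arrays read 530 and 560 (0 h), 601 and 561 (1 h), 585 and 620 (3 h), 542 and 854 (12 h), 846 and 861 (24 h) and 898 and 673 (48 h). All SHAM arrays from 3 h on and all TOL arrays of 24 and 48 h lay above the 0 h pair of their arm. It rose in SHAM at 24 h (log2 0.77 ± 0.20, adjusted p = 0.024) and 48 h (0.75 ± 0.20, 0.024), and in the average of both arms by 0.71 ± 0.14 (0.0031) and 0.63 ± 0.14 (0.0062). In TOL alone the 24 h difference was 0.65 ± 0.20 with an adjusted p of 0.063, and no time passed.

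Slc3a2, its heavy chain, was measured by 2 probe sets of high signal. The brighter one read 773 and 624 (0 h), 628 and 602 (1 h), 896 and 798 (3 h), 994 and 1102 (12 h), 1050 and 778 (24 h) and 894 and 824 (48 h) in SHAM and 537 and 685 (0 h), 565 and 846 (1 h), 875 and 589 (3 h), 919 and 636 (12 h), 944 and 958 (24 h) and 1261 and 960 (48 h) in TOL, with overlapping groups. It passed at 48 h in the average of both arms (log2 0.58 ± 0.18, adjusted p = 0.035) and in neither F test of a single arm (0.24 in SHAM and 0.17 in TOL). The other probe set had tighter pairs. Its SHAM arrays read 471 and 449 (0 h), 591 and 548 (1 h), 725 and 645 (3 h), 768 and 688 (12 h), 642 and 817 (24 h) and 837 and 665 (48 h). Its TOL arrays read 449 and 476 (0 h), 517 and 578 (1 h), 694 and 642 (3 h), 762 and 717 (12 h), 689 and 763 (24 h) and 934 and 859 (48 h). Every later array on it lay above both 0 h arrays of its arm, and it rose at 12, 24 and 48 h in both arms, by log2 0.70 ± 0.14 in SHAM (0.0077) and 0.95 ± 0.14 in TOL (0.0014) at 48 h.

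The lysosomal histidine and peptide carrier Slc15a4 rose at 12 h in SHAM (log2 0.63 ± 0.17, adjusted p = 0.049) from 153 and 149 units to 248 and 221. In TOL its 0 h arrays read 155 and 202 and its 12 h arrays 236 and 249, a difference that did not pass (0.45 ± 0.17, 0.18). Slc7a3, another cationic amino acid carrier, hovered around the noise level, from 34 and 68.9 units at 0 h to 77.2 and 80.2 at 24 h in SHAM and from 30.9 and 31.5 to 58.2 and 62.6 in TOL. It passed the F test only in the average of both arms (0.014), and no single time did. The plasma membrane peptide carriers Slc15a1 and Slc15a2 passed no time course test.

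**Figure D2:**
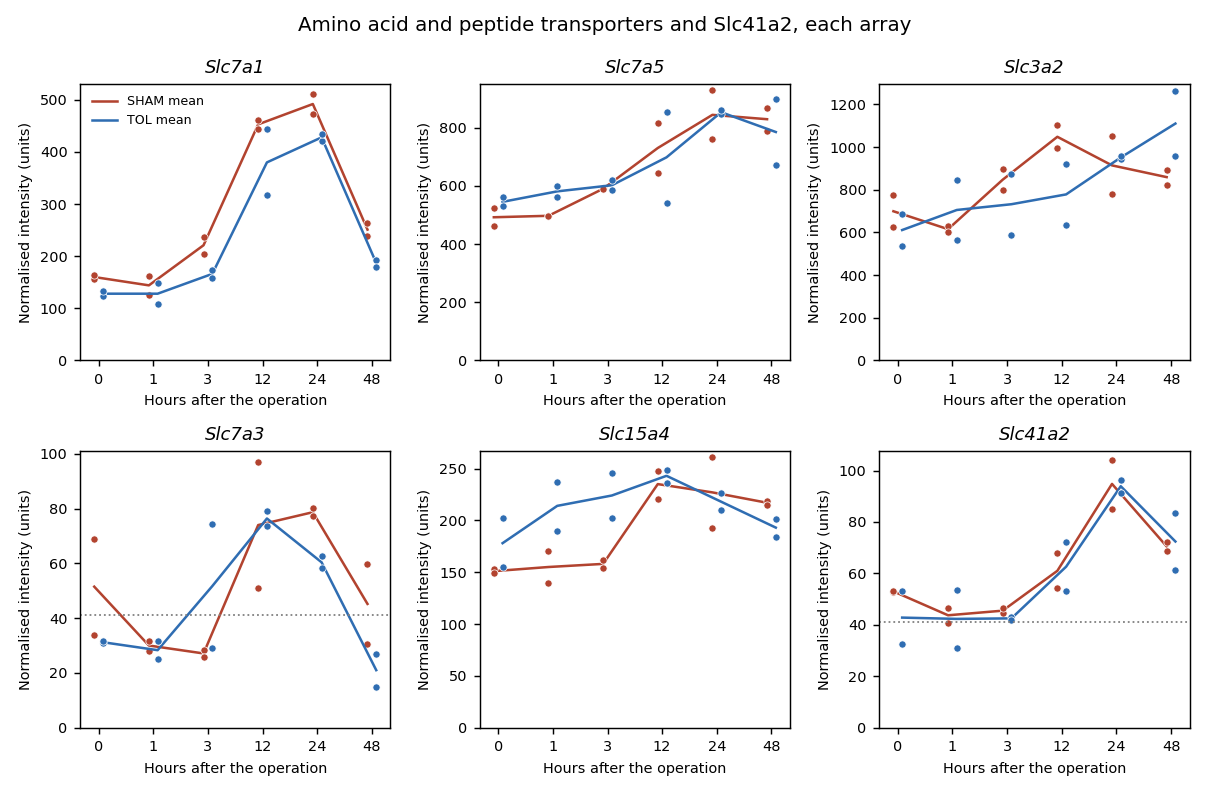
Normalised intensity (units, linear axis from 0) of 6 members on every array (points) with the mean of 2 arrays (lines) against hours after the operation, shown as evenly spaced categories, SHAM in red and TOL in blue. The dotted line is the noise level of 41.1 units, and the 12 and 24 h points of Slc7a1 lie between 317 and 511 units in both arms, above its 0 h points of 123 to 164.

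The 75 other members above noise were searched for 12 group means like those of Slc7a1. The highest Pearson r over these means was that of Slc41a2, a magnesium carrier (0.80), followed by Slc7a3 (0.78) and Slc7a5 (0.76). These are descriptions over 12 means that share arrays. Slc41a2 was dim. Its SHAM arrays read 52.9 and 53.1 (0 h), 40.8 and 46.6 (1 h), 44.4 and 46.6 (3 h), 54.2 and 67.8 (12 h), 104 and 85.2 (24 h) and 68.9 and 72.1 (48 h) units. Its TOL arrays read 53.2 and 32.4 (0 h), 31 and 53.6 (1 h), 43.2 and 41.8 (3 h), 53.1 and 72.1 (12 h), 96.3 and 91.4 (24 h) and 83.3 and 61.5 (48 h). The 24 h arrays were the highest of each arm. It rose at 24 h in TOL (log2 1.18 ± 0.27, adjusted p = 0.018) and in the average of both arms at 24 h (1.00 ± 0.19, 0.0024) and 48 h (0.60 ± 0.19, 0.039). In SHAM alone the 24 h difference was 0.83 ± 0.27 (0.072). Its TOL F test (0.024) was lost without replicate 1 (0.095) or replicate 2 (0.08) of TOL at 24 h. Other metal carriers, among them the iron carrier Slc11a2 (208 to 384 units over all arrays) and the magnesium carrier Slc41a3 (152 to 221), passed no F test. The second probe set of Slc11a2 was higher at 24 h in the average of both arms (0.71 ± 0.19, 0.02).

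The sugar, inositol and iodide class holds 11 members, of which 8 were tested. Slc5a3 brings myo-inositol, an organic osmolyte, into the cell together with sodium. In SHAM its arrays read 115 and 88.4 (0 h), 154 and 188 (1 h), 205 and 257 (3 h), 223 and 159 (12 h), 137 and 201 (24 h) and 177 and 124 (48 h) units. In TOL they read 113 and 105 (0 h), 185 and 167 (1 h), 191 and 177 (3 h), 194 and 180 (12 h), 167 and 132 (24 h) and 118 and 145 (48 h). Every later array lay above the 0 h pair of its arm, with the SHAM maximum at 3 h. It rose in SHAM at 3 h (log2 1.19 ± 0.24, adjusted p = 0.021) and 12 h (0.90 ± 0.24, 0.043). In the average of both arms it was the only member called at 1 h (0.72 ± 0.17, 0.047; 2% of all probe sets were called), and it was called at 3 h (0.97 ± 0.17, 0.0054), 12 h and 24 h too. In TOL alone the 12 h value was 0.77 ± 0.24 (0.092), and no time passed. Its SHAM F test (0.041) was lost when any of 16 arrays was left out, while the F test over both arms (0.0067) held without each of the 24.

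Slc2a3, the main glucose carrier of neurons, read 161 and 164 (0 h), 211 and 228 (1 h), 284 and 311 (3 h), 306 and 233 (12 h), 274 and 232 (24 h) and 258 and 173 (48 h) in SHAM. In TOL it read 160 and 160 (0 h), 250 and 229 (1 h), 215 and 200 (3 h), 205 and 180 (12 h), 165 and 151 (24 h) and 148 and 204 (48 h). All later SHAM arrays were above the 0 h pair, whereas in TOL those of 24 and 48 h overlapped it. It rose in SHAM at 3 h (log2 0.88 ± 0.20, adjusted p = 0.035) and 12 h (0.72 ± 0.20, 0.047), with 0.38 ± 0.20 (0.51) and 0.26 ± 0.20 (0.53) at the same times in TOL. Its F test passed in neither arm alone (0.052 in SHAM and 0.2 in TOL). The F test over both arms passed (0.029) and held in 18 of the 24 fits with an array left out. The difference between the arms in this time course did not pass (interaction F test, adjusted p = 0.55). Its second probe set stayed below 0 on all arrays and bears on nothing.

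Slc2a5 carries fructose and is found in brain on microglia. It read 129 and 88.3 units at 0 h and 181 and 223 at 48 h in SHAM, and 115 and 81.7 at 0 h and 275 and 275 at 48 h in TOL. It rose at 48 h in TOL (log2 1.50 ± 0.40, adjusted p = 0.035) and in the average of both arms (1.21 ± 0.28, 0.0084), with 0.91 ± 0.40 (0.14) in SHAM. Its F test passed in neither arm alone (0.32 in SHAM and 0.1 in TOL). Over both arms (0.042) it was lost without a filter (0.06) and with hybridisation day as a block (0.12). It held in 8 of the 24 fits with an array left out. Its second probe set was below the noise level on every array. Summed microglia and macrophage markers (8 measured, 4 above noise, with Itgam, C1qc, Csf1r and Fcgr2b below it) went from 527 to 698 units at 0 h to 1256 to 2067 at 48 h in SHAM, and from 667 to 709 to 1957 to 2996 in TOL. Their part in the result was not tested. In these tissue samples more cells of a type and more RNA per cell cannot be told apart, nor can fewer cells and less RNA.

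Slc37a4 moves glucose-6-phosphate into the endoplasmic reticulum. SHAM arrays read 128 and 133 (0 h), 131 and 128 (1 h), 115 and 131 (3 h), 135 and 147 (12 h), 139 and 152 (24 h) and 173 and 190 (48 h) units. TOL arrays read 146 and 154 (0 h), 162 and 159 (1 h), 176 and 189 (3 h), 173 and 164 (12 h), 186 and 193 (24 h) and 111 and 141 (48 h). SHAM was highest at 48 h, the time at which TOL was lowest. The F test passed in both arms (0.04 in SHAM and 0.031 in TOL), the single test only at 48 h in SHAM (log2 0.47 ± 0.12, adjusted p = 0.022), and -0.27 ± 0.12 in TOL did not pass (0.21). It had the smallest interaction p of the members, 0.079 after adjustment. The SHAM F test was lost when any of 15 arrays was left out, with hybridisation day as a block (0.14), which divides the SHAM 48 h pair, and with each array divided by its median (0.051). The TOL F test held in 19 of the 24 fits with an array left out. It was lost on the deposited scale (0.19), within the day that holds most TOL arrays (0.2) and with TOL arrays alone (0.16). The second probe set of Slc37a4, at 92.2 and 106 units at 0 h and 92.7 and 122 at 48 h in SHAM, did not show the 48 h change, with 0.11 ± 0.26 (0.84) there and F tests of 0.29 in SHAM and 0.79 in TOL. Slc5a1, the intestinal sodium and glucose carrier, read 171 to 250 units over all arrays with no change that passed, and the insulin-responsive glucose carrier Slc2a4 read 60.2 to 120.

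Of the lactate carriers, Slc16a1, known in brain from endothelium and glia, read 161 and 154 (0 h), 217 and 294 (1 h), 288 and 257 (3 h), 295 and 261 (12 h), 357 and 283 (24 h) and 423 and 255 (48 h) in SHAM. In TOL it read 241 and 204 (0 h), 238 and 240 (1 h), 264 and 265 (3 h), 179 and 285 (12 h), 223 and 218 (24 h) and 292 and 281 (48 h). Every later SHAM array lay above the 0 h pair, while in TOL the arrays of 1, 12 and 24 h overlapped it. It rose in SHAM at 24 h (log2 1.01 ± 0.24, adjusted p = 0.017) and 48 h (1.06 ± 0.24, 0.013), though its SHAM F test did not pass (0.051). In TOL the values were -0.01 ± 0.24 and 0.37 ± 0.24. Its second probe set, at 136 and 155 units in SHAM at 0 h and 247 and 214 at 24 h, gave 0.67 ± 0.22 (0.08) there. The neuronal carrier Slc16a7 was lower at 12 h in the average of both arms (-0.69 ± 0.16, 0.015), at 46.8 and 65.3 units in SHAM and 50.3 and 34.7 in TOL against 83.2 and 76.5, and 81.6 and 69.8, at 0 h. Slc16a3, the lactate exporter of glycolytic cells, stayed between 99.7 and 172 units with nothing that passed.

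**Figure D3:**
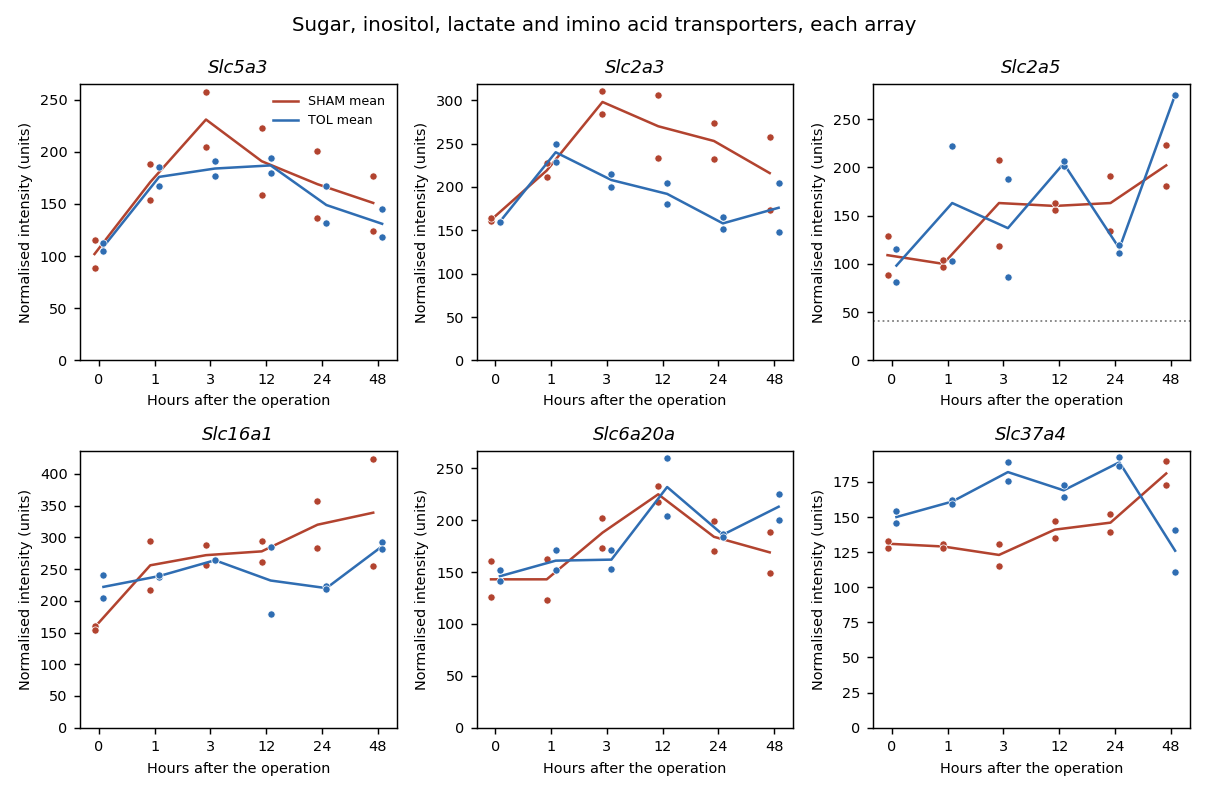
Normalised intensity (units, linear axis from 0) of 6 carriers of inositol, sugars, lactate and imino acids on every array (points) with the mean of 2 arrays (lines), against hours after the operation as evenly spaced categories, SHAM in red and TOL in blue. The dotted line is the noise level of 41.1 units, and Slc5a3 has its 0 h points, 88.4 to 115 units, below all later ones.

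Carriers of neuronal ions were among those that fell. Slc12a5 extrudes potassium with chloride and sets the low chloride of mature neurons on which inhibition by GABA depends. In SHAM its arrays read 1391 and 1106 (0 h), 1056 and 1218 (1 h), 1186 and 1117 (3 h), 928 and 813 (12 h), 788 and 706 (24 h) and 877 and 1182 (48 h) units. In TOL they read 1206 and 1424 (0 h), 1537 and 1612 (1 h), 1491 and 1529 (3 h), 1101 and 1367 (12 h), 914 and 1083 (24 h) and 1006 and 990 (48 h). The 24 h arrays were below both 0 h arrays in each arm. It fell at 24 h in SHAM (log2 -0.73 ± 0.17, adjusted p = 0.015) and in the average of both arms (-0.56 ± 0.12, 0.0056), with -0.40 ± 0.17 (0.19) in TOL. The F tests of the single arms (0.044 and 0.048) were fragile. With the replicate number as a block they gave 0.053 in SHAM and 0.058 in TOL, and they were lost when any of 17 arrays (SHAM) or 18 arrays (TOL) was left out, while the F test over both arms (0.0049) held without each of the 24.

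Slc24a2 exchanges sodium for calcium and potassium in neurons. SHAM arrays read 636 and 551 (0 h), 685 and 790 (1 h), 694 and 460 (3 h), 450 and 393 (12 h), 473 and 414 (24 h) and 429 and 343 (48 h) units. TOL arrays read 811 and 493 (0 h), 540 and 548 (1 h), 386 and 586 (3 h), 383 and 374 (12 h), 257 and 331 (24 h) and 301 and 380 (48 h). All arrays of 12, 24 and 48 h lay below the 0 h pair of their arm. It fell at 24 h in TOL (log2 -1.11 ± 0.27, adjusted p = 0.024) and, in the average of both arms, at 24 h (-0.77 ± 0.19, 0.012) and 48 h (-0.76 ± 0.19, 0.012). In SHAM the 48 h value was -0.62 ± 0.27 (0.14). The F test of Slc24a2 passed over both arms (0.0081) but in neither arm alone (0.11 in SHAM and 0.057 in TOL). The class it belongs to, carriers of calcium, phosphate, sulphate and dicarboxylates, had the lowest median of all classes at 48 h in the average of both arms. That median of -0.46 rests on the 4 members above noise, out of 7 tested. Slc8a2, a sodium and calcium exchanger, read 146 and 71.9 units at 0 h and 36.5 and 47.1 at 48 h in SHAM and passed no test, and the brightest of the 5 probe sets of the phosphate carrier Slc34a1 stayed between 176 and 268 units. Of its dim ones, 1 passed the SHAM F test (0.026), with 55.5 and 49.8 units at 0 h and 26 and 28.5 at 48 h, and another the TOL F test (0.02), from a 0 h pair below 0 to 61.1 and 66.5 units at 48 h.

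Slc6a15, a carrier of branched-chain amino acids and proline in neurons, read 371 and 382 (0 h), 427 and 395 (1 h), 368 and 338 (3 h), 266 and 254 (12 h), 318 and 248 (24 h) and 332 and 298 (48 h) units in SHAM. In TOL it read 363 and 386 (0 h), 351 and 404 (1 h), 333 and 335 (3 h), 311 and 256 (12 h), 263 and 283 (24 h) and 256 and 315 (48 h). The 12, 24 and 48 h arrays lay below the 0 h pair in both arms. It fell at 12 h in SHAM (log2 -0.53 ± 0.15, adjusted p = 0.048) and at 12, 24 and 48 h in the average of both arms (-0.47 ± 0.10, 0.0094; -0.44 ± 0.10, 0.0097; -0.33 ± 0.10, 0.037). Summed hippocampal pyramidal neuron markers (4 measured, all above noise) went from 10070 to 10456 units at 0 h to 6494 to 6837 at 48 h in SHAM and from 8598 to 10711 to 6338 to 6989 in TOL, with 3 of the 4 lower at 48 h in each arm. Between these times summed general neuron markers (6 measured, all above noise) went from 6210 to 6367 units to 5731 to 5892 in SHAM. In TOL they went from 6867 to 7406 to 5162 to 5360, and 1 of the 6 was called lower at 48 h in each arm. Of 6 interneuron markers, all above noise, 0 were called lower at 48 h in either arm. The part of these marker lists in the falls of Slc12a5, Slc24a2 and Slc6a15 was not tested.

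Among the bicarbonate carriers, Slc4a7, which brings bicarbonate into cells with sodium, read 596 and 589 (0 h), 588 and 514 (1 h), 665 and 632 (3 h), 652 and 672 (12 h), 723 and 590 (24 h) and 347 and 367 (48 h) in SHAM. In TOL it read 550 and 412 (0 h), 386 and 309 (1 h), 438 and 427 (3 h), 491 and 550 (12 h), 574 and 528 (24 h) and 403 and 421 (48 h). The 48 h SHAM pair stood below all other SHAM arrays. It fell at 48 h in SHAM (log2 -0.73 ± 0.15, adjusted p = 0.008), and the TOL value of -0.21 ± 0.15 did not pass (0.47), nor did the interaction (0.37). Its SHAM F test (0.0067) was lost without replicate 1 of SHAM at 48 h (0.066), on the deposited scale (0.31) and within the day that holds most SHAM arrays (0.091). Slc4a3, an exchanger of chloride for bicarbonate in brain and heart, read 496 and 529 (0 h), 522 and 536 (1 h), 455 and 553 (3 h), 431 and 422 (12 h), 287 and 302 (24 h) and 420 and 356 (48 h) in TOL. It fell there at 24 h (-0.80 ± 0.17, 0.015), at a time when SHAM arrays read 270 and 411 against 362 and 363 at 0 h (-0.12 ± 0.17, 0.75). The interaction did not pass (0.33), and the TOL F test (0.026) was lost without replicate 2 of 1 h (0.055) and without replicate 1 (0.13) or 2 (0.099) of 24 h.

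**Figure D4:**
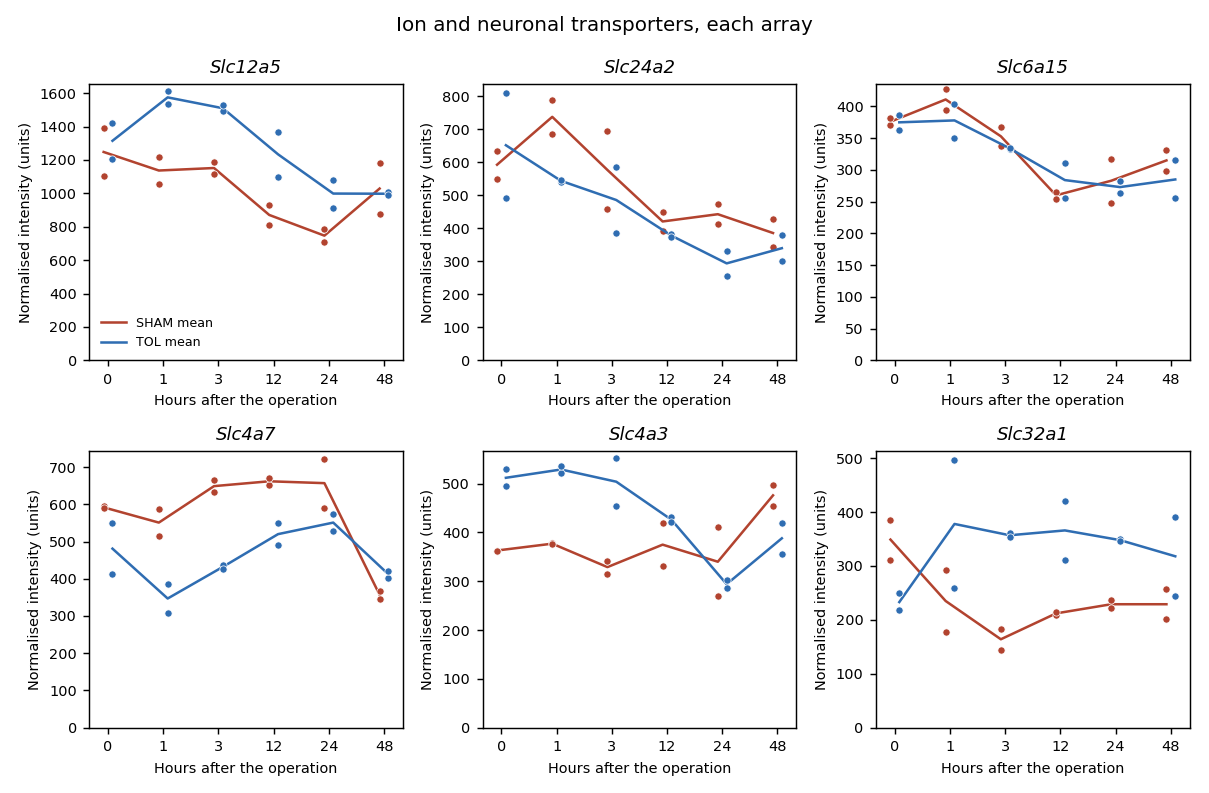
Normalised intensity (units, linear axis from 0) of 6 carriers of ions, amino acids and transmitters on every array (points) with the mean of 2 arrays (lines), against hours after the operation as evenly spaced categories, SHAM in red and TOL in blue. The 24 h points of Slc12a5 (706 and 788 units in SHAM, 914 and 1083 in TOL) lie below the 0 h points of the same arm.

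The remaining carriers of the Slc6 family include Slc6a20a, which takes up proline and other imino acids. It rose at 12 h in SHAM (log2 0.66 ± 0.18, adjusted p = 0.049) from 161 and 126 units to 233 and 218, with 0.65 ± 0.18 (0.062) in TOL, from 152 and 141 to 260 and 204. The average of both arms passed at 12 h (0.66 ± 0.13, 0.0046) and 48 h (0.39 ± 0.13, 0.047). The Slc6a20a F test passed over both arms (0.013) but in neither arm alone (0.087 in SHAM and 0.11 in TOL). Slc6a8, the creatine carrier, ranged from 512 to 1113 units with overlapping groups and passed no test. Slc6a2, the noradrenaline carrier, was lower at 48 h in the average of both arms (-0.82, 0.03).

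The mitochondrial carriers gave the brightest members and few changes. The ADP and ATP exchangers Slc25a4 (2790 to 3537 units over all arrays) and Slc25a5 (1745 to 2485), and the phosphate carrier Slc25a3 (2348 to 3007), passed no time course test. No member of this class of 12 passed a time course F test in SHAM, TOL or the average, with 3, 0 and 4 members at an unadjusted limma p under 0.05. Slc25a17, a carrier of the peroxisome, was higher at 48 h in SHAM (945 and 902 against 749 and 568 units, log2 0.50, adjusted p = 0.044), and Slc25a14 was lower at 24 h in the average of both arms (-0.53, 0.036). The citrate carrier Slc25a1 ran from -55.7 to 257 units with array pairs as far apart as 126 and -55.7, so its 48 h difference of -2.03 ± 1.30 had an adjusted p of 0.3. The carnitine and acylcarnitine carrier Slc25a20 read 21.6 and 29.6 units at 0 h and 69.9 and 80.8 at 48 h in SHAM, at least 1.83-fold higher with the 0 h pair counted at the noise level, and did not pass (0.066).

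Among the nucleoside, vitamin and sugar-nucleotide carriers, Slc28a2, a sodium-coupled carrier of purine nucleosides, passed the SHAM F test (0.004). It lay near the noise level, at 95.6 and 25.2 units at 0 h and -11 and -0.542 at 48 h in SHAM, so it was at least 1.19-fold lower, counting the 48 h pair at the noise level. The call was lost with the floor raised to the noise level (0.71). Between the arms at single times it was the only member called, at 48 h (adjusted p = 0.03), where 0.296% of all probe sets were called and 0.0987%, 0.0564%, 0.0141%, 0.409% and 0.183% at 0, 1, 3, 12 and 24 h. There it read 49.3 and 37.9 units in TOL, which is at least 1.05-fold higher than in SHAM. Slc35a1, which brings CMP-sialic acid into the Golgi, passed the F test over both arms (0.0066). Its lowest arrays were those of 1 h, 111 and 94.5 in SHAM and 87.7 and 89.3 in TOL against 172 and 152, and 115 and 164, at 0 h. Its highest were at 24 and 48 h, and no single time passed. Its second probe set was below the noise level and bears on nothing. Slc14a2, a urea carrier (757 to 1204 units), passed no test, nor did the brighter probe set of Slc35b1 (706 to 1020). The other Slc35b1 probe set was higher at 48 h in SHAM, at 463 and 401 units against 263 and 248 at 0 h (log2 0.76 ± 0.20, adjusted p = 0.025). The brighter probe set of the folate carrier Slc19a1 passed no time course F test either (0.52 in SHAM and 0.98 in TOL). Its dimmer one passed in SHAM (0.022) and was lower at 24 h in the average of both arms (-1.29 ± 0.24, 0.002), at 66 and 95.2 units in SHAM and 78.4 and 78 in TOL against 137 and 174, and 176 and 327, at 0 h.

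Other classes held few calls. Slc22a13, an organic anion carrier of kidney, passed the F test over both arms (0.022), with TOL arrays of 116 and 115 units at 0 h and 43.8 and 55 at 48 h. Slc4a1, the chloride and bicarbonate exchanger of red blood cells, passed it too (0.031), with 328 and 281 units at 0 h and 194 and 185 at 12 h in SHAM and 197 and 206, and 186 and 193, in TOL. Summed red blood cell markers (3 measured) read 4239 to 4640 units at 0 h and 4991 to 5633 at 12 h in SHAM, and their part in this was not tested. The F test of Slc4a1 over both arms held in 11 of the 24 fits with an array left out. It was lost on the deposited scale (0.099). The other 2 Slc4a1 probe sets did not pass this F test (0.3 and 0.094) and gave 0.16 and -0.04 at 12 h in the average of both arms, and the dimmer of them was lower at 24 h (-0.34 ± 0.10, 0.033). The vesicular acetylcholine carrier Slc18a3 (151 to 304 units) passed no test, nor did the brighter probe set of the organic anion carrier Slc22a7 (117 to 213). The dim one of Slc22a7 passed the SHAM F test (0.00093), from 95 and 81.3 units at 0 h to 5.41 and -6.13 at 12 h, which is at least 2.14-fold lower counting the 12 h pair at the noise level. The vesicular monoamine carrier Slc18a1 and the sugar phosphate carrier Slc37a1 were each called at 24 h but lay below the noise level in every group, so no fold is given. The iron exporter Slc40a1 was called at 24 h in the average of both arms (adjusted p = 0.038) at levels around and below the noise level, with a mean over all arrays of 33.4 units, and was at least 1.02-fold lower there. Slc12a7, a potassium and chloride carrier with a mean of -34.4 units, was called lower at 24 and 48 h, and its relative Slc12a4 higher at 48 h (0.48, 0.042). Slc52a3, a riboflavin carrier, was not tested, with values from -23.8 to 34.6 units.

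The arms were then compared with each other. No member passed the interaction of arm and time, against 0.353% of all probe sets, and 7 members had an unadjusted p under 0.05 by limma (7% of the members and 10.1% of all). In the mean over the 6 times 10 members differed, 5 higher and 5 lower in TOL, beside 9.31% of all probe sets. Higher in TOL were the dicarboxylate carrier of mitochondria Slc25a10 (mean 164 units in SHAM and 211 in TOL), the fatty acid carrier Slc27a1 (251 and 399), Slc12a5 (1031 and 1272), Slc37a4 (142 and 163) and Slc32a1 (236 and 333), which fills vesicles with GABA and glycine. Lower in TOL were Slc4a7 (578 and 457), the glucose carrier Slc2a4 (91.1 and 72.6), Slc7a1 (287 and 236), Slc2a3 (236 and 189) and the mitochondrial carrier Slc25a30 (149 and 132). The log2 differences ran from -0.34 ± 0.08 for Slc2a4 to 0.69 ± 0.15 for Slc27a1, and all 10 pointed the same way at 5 or more of the 6 times. On the second brightest probe set of a gene the difference did not pass for Slc7a1 (adjusted p = 0.99), Slc2a4 (0.59), Slc37a4 (0.48) and Slc32a1 (0.81). It passed for Slc25a10 (0.59 on the log2 scale, 0.021), where that probe set lay near the noise level with a mean of 46.8 units. The third probe set of Slc25a10, with a mean of 3.72 units, did not pass (0.46, 0.71). The third and dimmest probe set of Slc7a1 passed in the same direction as the brightest (-0.71, 0.045).

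Arm and hybridisation day were nearly the same split, with 11 of 12 SHAM arrays on one day and 11 of 12 TOL arrays on the other. With day as a block none of the 10 passed (adjusted p from 0.98 to 1). The difference of Slc12a5 went from 0.30 ± 0.07 to 0.03 ± 0.14, of Slc2a3 from -0.31 ± 0.08 to -0.07 ± 0.17 and of Slc27a1 from 0.69 ± 0.15 to 0.31 ± 0.34, while Slc32a1 stood at 0.51 ± 0.13 and then 0.57 ± 0.30 and Slc7a1 at -0.30 ± 0.07 and then -0.41 ± 0.17. In the SHAM 48 h group, which had 1 array on each day, Slc2a3 read 258 and 173 units and Slc12a5 877 and 1182. In the TOL 0 h group Slc27a1 read 258 on the SHAM day and 611 on the TOL day. Arm and day can be told apart here only through these 4 arrays. Slc32a1 had 386 and 312 units at 0 h and 183 and 144 at 3 h in SHAM, and 218 and 249, and then 361 and 353, in TOL, and its second probe set, from 19.7 to 73.4 units, showed no difference that passed.

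**Figure D5:**
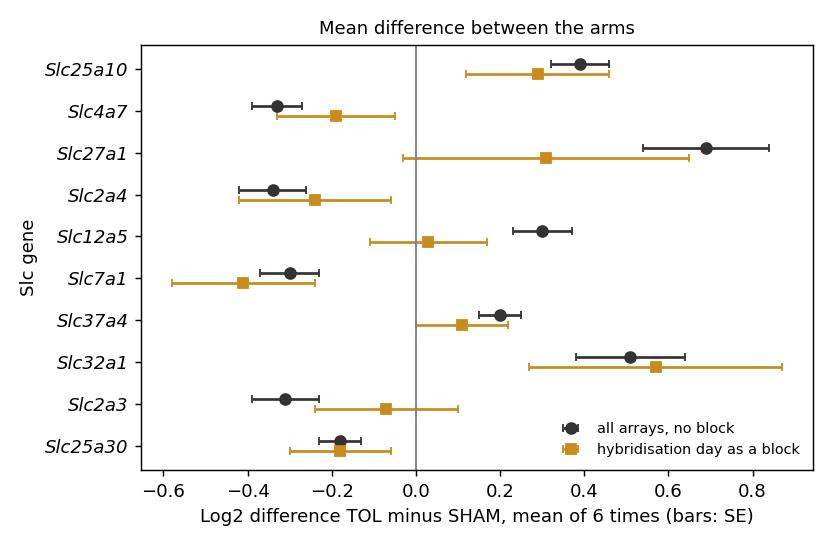
Mean log2 difference TOL minus SHAM over 6 times (points, bars are SE) for the 10 members called, from all 24 arrays without a block (dark circles) and with hybridisation day as a block (orange squares). With the block the SE is larger, going from 0.07 to 0.14 for Slc12a5, and the adjusted p is 0.98 or 1 for all.

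Transporters outside the Slc families were counted in the same way. Of 27 genes (6 organic anion carriers of the Slco type, 12 ATP-binding cassette transporters and 9 aquaporins), 23 were tested, 3 changed in SHAM by F test (13%, beside 15.7% of all probe sets) and 0 in TOL (beside 11.7% of all), where 3 had an unadjusted limma p under 0.05. Slco1a4, an organic anion carrier of brain endothelium, fell at 3 h in SHAM from a mean of 329 to 80.4 units (log2 -2.03, adjusted p = 0.0014). The TOL difference then was -0.95 (0.14). Of the endothelium markers 6 were measured and 3 were above noise, with Vwf, Kdr and Abcb1a below it. Their sum read 608 to 662 units at 0 h and 315 to 402 at 3 h in SHAM, and 522 to 581 and 373 to 494 in TOL. This sum includes Slco1a4 itself, whose mean went from 329 to 80.4 units in SHAM and from 284 to 153 in TOL. It is thus no separate measure of endothelium, and the part of the other markers in the fall was not tested. Abcb6 fell at 12 h in SHAM (-0.82, 0.0086) and Aqp6 at 48 h (-0.67, 0.017).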

How the data were processed

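The deposited values, a single one for each probe set on an array, were treated as intensity on a linear scale after background subtraction. How they were computed is not given in the sources used here. Chip type, hybridisation day and fluidics records come from the deposited experiment files, and 6 fluidics runs were inferred from recorded times at most 5 minutes apart. Arrays were quantile normalised, floored at the 25th percentile (3.49 units) and taken to log2. Leaving out 59 controls and all probe sets that no group had over the floor on both of its arrays kept 7092 of 8799. By the annotation 7018 probe sets matched 1 gene, 308 several and 1473 none, and only the first kind can be members.

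With limma 3.58.1 in R 4.3.3, group means were fitted to all 24 arrays (12 residual and 1.47 prior degrees of freedom). Tests were two-sided, with Benjamini-Hochberg adjustment over all tested probe sets and a threshold of 0.05. The script was checked on simulated data for the SHAM time course. It recovered 39% of genes changed by a log2 of 1 and 54% of those changed by 2. Of the genes called there 8.82% were false, above the threshold of 0.05. Figures and promoter searches used Python 3.11.15, numpy 2.4.6 and matplotlib 3.10.9.

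The members, classes, marker lists and tests were chosen with earlier results of these data known. Named are members passing an arm's F test, the interaction or the mean arm difference, the 2 brightest of each class and the 5 with the largest mean 48 h difference above noise. Members called only in the average of both arms, or at single times, were named after their values were seen. Where both arrays of a group were below the noise level, the fold is a bound computed with that level. Alternatives covered scaling, floor, filter, hybridisation day, fluidics run, the replicate number, the probe set of a gene and each array left out. Same-numbered arrays of different groups did not deviate together (66 pairs, correlations of deviations from -0.17 to 0.18), so the replicate numbers were not taken to pair samples.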

Additional observations from a re-analysis of the deposited data

How the results depend on the processing

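Counts below are of members called, which were 9 in SHAM and 5 in TOL by F test, 20 in the average of both arms, 0 in the interaction, 10 in the mean arm difference, and 19, 7, 40 and 1 summed over single times in SHAM, TOL, the average and between the arms. On the deposited scale, with no scaling between arrays, they were 2 in SHAM, 2 in TOL, 7 in the average and 1 in the mean arm difference, with 4, 12 and 0 for single times in SHAM, the average and between the arms. That scale moved the median of all probe sets by 0.18 in SHAM at 48 h and by -0.36 and -0.28 in TOL at 12 and 48 h. With the floor at the 40th percentile TOL gave 10 by F test and 13 at single times, with the floor at the noise level 9 and 13, and either left 0 between the arms. Without a filter 1 passed the interaction and 2 differed between the arms, and a filter at the noise level gave 11 at single times in TOL. The second probe set of a gene gave 1 and 3 for these 2 comparisons. With hybridisation day as a block the counts were 0 for the mean arm difference, 0 between the arms at single times and 24 for the average at single times. Within single days SHAM gave 5 by F test and 11 at single times, and TOL 3 by F test, of which 1 in each arm, Slc7a1, was among the members called in the fit to all arrays, and the arm differences and the interaction could not be fitted. The fluidics run as a random block, with an estimated correlation of -0.0814, gave 15, 12, 1 and 16 for SHAM, TOL, the interaction and the mean arm difference, and 33, 15 and 2 at single times. SHAM arrays alone gave 12 at single times and TOL arrays alone 2 by F test, and F tests over 1, 3 and 12 h gave 2, 1 and 8. The last 3, the average of both arms and the floor at the noise level were chosen after seeing the data. The cause of these shifts was not tested.

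With each array left out in turn the F test counts ran from 3 to 10 in SHAM, 1 to 7 in TOL and 14 to 20 in the average, from 0 to 1 in the interaction and 6 to 11 in the mean arm difference. Single-time counts ran from 6 to 23, 3 to 12, 18 to 44 and 0 to 2 in the order given above. With the replicate number as a block the F tests gave 7 in SHAM and 5 in TOL, and the block ended the SHAM call of Slc5a3 (adjusted p = 0.054) besides those of Slc12a5. Over the members named, 1166 alternative values kept their direction and side of the threshold, 317 kept the direction but lost the call, and 7 reversed, all on the second brightest probe set of a gene. These were Slc7a1 (log2 -0.31 and adjusted F p 0.2 in SHAM, -0.24 and 0.84 in TOL, -0.28 and 0.65 in the average), Slc37a4 in TOL (-0.04, 0.79), Slc4a1 and Slc35a1 in the average (0.16, 0.3 and 0.60, 0.19) and the mean arm difference of Slc32a1 (-0.08, 0.81). The probe set concerned of Slc35a1 was below the noise level, with a mean of 2.58 units, so its reversal bears on nothing. On the second brightest probe set of a gene 1 of 4 members called in the average, Slc2a5, kept its call, and 0 of 2 in SHAM and 0 of 2 in TOL. That Slc2a5 probe set, with a mean of -41.5 units, was below the noise level on every array, so its call lends no support. Precision is limited by signal over background, since 38 of 114 members lay below the noise level on average.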

Other observations

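The members whose group means were most like those of Slc28a2, a nucleoside carrier near the noise level, were the folate carrier Slc19a1 (Pearson r = 0.73 over 12 group means), the phosphate carrier Slc34a1 (0.71) and the urea carrier Slc14a2 (0.64). In the interaction of arm and time the 7 members with an unadjusted p under 0.05 were Slc37a4 (0.00037), Slc28a2 (0.0029), Slc4a3 (0.01), Slc28a1 (0.011), Slc4a7 (0.017), Slc32a1 (0.031) and Slc25a20 (0.031), and none passed after adjustment by limma.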
